A study of Schizosaccharomyces pombe 972h- with 8 samples.

Results

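The small subunit of the cytosolic ribosome of the fission yeast Schizosaccharomyces pombe was represented by 54 of the 4854 genes in the deposited tables. These genes were chosen by name: the first part of their identifier had to be rps followed by a number and at most a letter, and mitochondrial ribosomal proteins were left out. They encode 31 proteins. For 22 of these proteins 2 or 3 genes, called paralogues here, were measured (45 genes), and the other 9 proteins had a single gene in the tables. RNA came from wild-type strain 972 h- growing in rich YE medium. The groups compared were control cells and the same cultures 30 min after addition of 0.5 mM H2O2, which imposes oxidative stress, and both groups share strain and medium. Each group holds 2 samples, from cultures that were started from independent colonies, and each RNA was hybridized to a tiling array (Sp_TMA) and to an expression array (Sp_EMA), 8 arrays in all. The labelling for Sp_TMA kept the strand of the transcript and that for Sp_EMA did not, so on Sp_EMA a gene and its antisense RNA cannot be told apart.

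The small subunit holds the 18S rRNA, binds the mRNA and reads its codons, and its proteins are described by their place in the head, the platform or the body of the particle. Growing yeast cells make ribosomes at a high rate, and ribosomal protein genes are among the most strongly transcribed genes. Most of them exist in fission yeast as duplicated genes that encode the same or nearly the same protein. In this yeast many of their promoters carry a HomolD box, which takes the place of a TATA box, and some carry a HomolE box beside it.

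In H2O2 no small-subunit gene passed the test as higher, and a minority passed as lower. On Sp_TMA 9 of 54 genes (16.7%) passed the test as lower, against 31.3% of all genes called lower, and 0 passed as higher, against 25.2% of all genes. On Sp_EMA 2 genes (3.7%), rps1401 and rps1602, were lower, against 36.2% of all genes, and 0 were higher, against 22.7%. The test was limma on log2 values over all genes of a platform, two-sided, with a Benjamini-Hochberg adjusted p below 0.05. At an unadjusted p below 0.05, limma placed 16 genes lower and 0 higher on Sp_TMA, where 33.9% of all genes were lower and 27.6% higher. On Sp_EMA 3 were lower and 0 higher at that threshold, against 38.8% and 24.5% of all genes. The changes were small and nearly all of 1 sign. On Sp_TMA 53 of 54 genes had a change below 0, against 2661 of all 4854 genes. Their median was -0.177 (log2), where the median over all genes was -0.051. On Sp_EMA 52 of 54 had a change below 0, against 2963 of all 4854 genes. The median there was -0.047, where that over all genes was -0.071. With the culture as a replicate block, since control and H2O2 cells came from the same culture, 18 genes were lower on Sp_TMA and 3 on Sp_EMA. On each platform 39 of 54 genes (72.2%) had both H2O2 arrays below both control arrays, which was so for 44.7% of all genes on Sp_TMA and 51.2% on Sp_EMA.

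The H2O2 array of culture 2 on Sp_TMA stood apart for these genes and for other genes of translation. All 54 had a lower value on it than on the H2O2 array of culture 1, by a median of 0.219 (log2), whereas the median over all genes fell by 0.004. Among 160 other genes in the top 5% of control signal on Sp_TMA, the median fell by 0.064. Only the small-subunit and large-subunit genes chosen by name were taken out of that set, so ribosomal proteins under other names may remain. Of the 71 large-subunit genes 69 were lower on that array, by a median of 0.231. Of 18 genes listed as initiation factors that bind the small subunit all 18 were, by a median of 0.128. That list includes cpc2, annotated as the 40S ribosomal protein RACK1. The median change of the 54 genes was -0.045 in culture 1 and -0.34 in culture 2 on Sp_TMA, and -0.041 and -0.04 on Sp_EMA, where the same RNA was measured. In culture 1 on Sp_TMA 39 genes were below 0, and in culture 2 all 54 were. The count of lower genes on Sp_TMA was 1 without this array, 26 without the H2O2 array of culture 1, 1 without the control array of culture 1 and 0 without that of culture 2. Leaving out an array leaves 1 in its group, which is then assumed to vary like the other group. On Sp_EMA the count was 1 after leaving out any of the 4 arrays. On Sp_EMA the H2O2 array of culture 2 was also the lower one in 42 of the 54 genes, with a median difference of -0.022 (log2). It was lower in 51 of the 71 large-subunit genes and 13 of the 18 listed factors, against 2442 of all 4854 genes. The samples carried the labelled treatment: ctt1, which encodes catalase, rose by 3.19 (log2) on Sp_TMA and by 2.99 on Sp_EMA, and srx1 (sulfiredoxin) by 3.46 and 2.29. The genes specific to M cells (mfm1, mfm2, mfm3 and mam2) and to P cells (map2 and map3) lay below the array medians in control cells, so they do not test the labelled mating type.

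**Figure D1:**
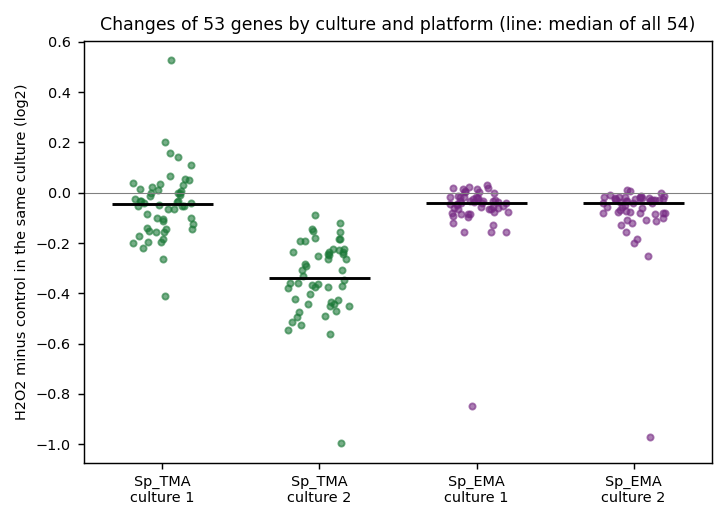
Change of 53 of the small-subunit genes (H2O2 minus control of the same culture, log2, vertical axis) in each culture on each platform; the black line is the median of all 54. On Sp_TMA the medians are -0.045 in culture 1 and -0.34 in culture 2, while on Sp_EMA they are -0.041 and -0.04.

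The gene that fell most on both platforms was rps1401 (SPAC3H5.05c), one of the pair that encodes S14 (uS11), a protein of the platform that contacts the end of the 18S rRNA. It lies on chromosome I of the ASM294v3 assembly from 3436244 to 3436825 on the forward strand, and its 420 coding bases lie in 1 exon. Its control values on Sp_TMA were 13.87 and 13.86 (log2), and its H2O2 values were 13.46 and 12.86 in cultures 1 and 2. On Sp_EMA the control values were 13.47 and 13.40 and the H2O2 values 12.62 and 12.43. Both H2O2 arrays lay below both control arrays on each platform, with a wider gap between the cultures on Sp_TMA. The change was -0.70 on Sp_TMA (standard error 0.186, limma adjusted p = 0.0188), so that the H2O2 signal was 0.614 times the control signal. On Sp_EMA it was -0.91 (standard error 0.0791, limma adjusted p = 0.000554), or 0.532 times. The call on Sp_TMA was kept without the H2O2 array of culture 2 (change -0.40, limma adjusted p = 0.0192) and lost without either control array (limma adjusted p = 0.0677 and 0.0606). On Sp_EMA it held in all settings run, with adjusted p from 9.3e-06 to 0.00486.

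Its paralogue rps1402 (SPBC18H10.13), on chromosome II from 1792363 to 1792936, forward strand, encodes the identical protein. On Sp_TMA rps1402 read 14.36 and 14.41 in control cells and 14.38 and 14.12 in H2O2, and on Sp_EMA 14.43 and 14.46 against 14.46 and 14.42. The groups of rps1402 overlapped on both platforms. Its change was -0.13 on Sp_TMA (limma adjusted p = 0.311) and -0.01 on Sp_EMA (limma adjusted p = 0.909), past the test on neither platform. The coding sequences of rps1401 and rps1402 differ at 27 of 420 bases, and 269 of the 396 stretches of 25 bases in each (67.9%) occur at 1 place in the genome. The first 120 coding bases of both genes are shown because they encode the same residues with different codons; capitals mark the 11 bases at which the genes differ.
rps1401, chrI:3436287-3436406, forward strand: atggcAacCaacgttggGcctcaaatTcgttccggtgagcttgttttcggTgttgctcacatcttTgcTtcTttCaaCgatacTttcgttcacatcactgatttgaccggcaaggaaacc
rps1402, chrII:1792384-1792503, forward strand: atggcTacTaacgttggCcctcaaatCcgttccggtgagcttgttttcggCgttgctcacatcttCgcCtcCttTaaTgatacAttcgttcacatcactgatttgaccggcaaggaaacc

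The 2 genes of S14 differed from each other in their response. Within each array rps1401 read below rps1402 by 0.48 and 0.55 (log2) in control cells on Sp_TMA, and by 0.91 and 1.26 in H2O2. On Sp_EMA the gap was 0.96 and 1.06 in control cells and 1.84 and 1.98 in H2O2. The gap widened in both cultures on both platforms. The difference in change, rps1401 minus rps1402, was -0.57 on Sp_TMA (95% interval -0.82 to -0.32) and -0.90 on Sp_EMA (95% interval -0.975 to -0.831). It was tested with limma on the within-array difference over 55 pairs of paralogues, 24 of the small and 31 of the large subunit by name. The adjusted p was 0.0112 on Sp_TMA and 4.76e-45 on Sp_EMA, where limma gave all pairs 1 shared variance. With the errors of the 2 genes taken from the fit over all genes, the adjusted p was 0.274 on Sp_TMA and 0.000122 on Sp_EMA. Over all settings it ran from 1.8e-11 to 0.429 on Sp_TMA, where the call was also lost without either control array (0.407 and 0.429), and from 4.76e-45 to 0.000122 on Sp_EMA.

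**Figure D2:**
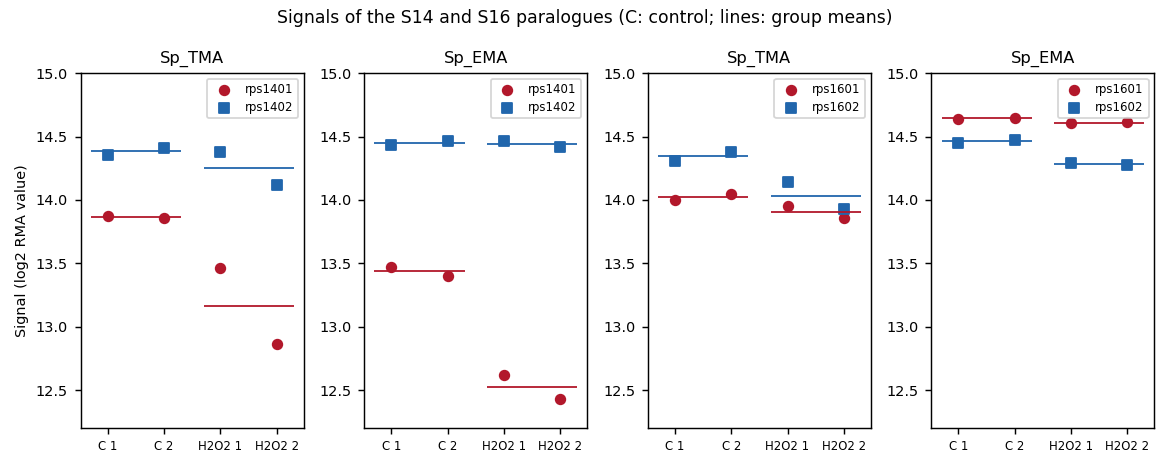
Signal (log2, vertical axis) of rps1401 and rps1402 (S14) and of rps1601 and rps1602 (S16) on each control (C) and H2O2 array, numbered by culture, with lines at the group means. The rps1401 signal falls from 13.47 and 13.40 to 12.62 and 12.43 on Sp_EMA while that of rps1402 stays between 14.42 and 14.46.

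S14 was the only small-subunit protein whose paralogues differed past the test on both platforms. Of the 24 small-subunit pairs 1 passed on Sp_TMA, where 10.9% of the 55 pairs did, and 2 passed on Sp_EMA, where 7.27% did. At an unadjusted p below 0.05 limma placed 4 pairs on each platform, where 27.3% of the 55 pairs were placed on Sp_TMA and 18.2% on Sp_EMA. The second pair on Sp_EMA was rps1601 and rps1602, which encode identical copies of S16 (uS9), a protein of the head whose tail reaches the tRNA in the P site. This pair was chosen for description with its values known. In H2O2 rps1602 went from 14.45 and 14.48 to 14.29 and 14.28 on Sp_EMA, a change of -0.18 (standard error 0.0486, limma adjusted p = 0.0268), and rps1601 from 14.64 and 14.65 to 14.60 and 14.62 (change -0.04, limma adjusted p = 0.562). On Sp_TMA rps1602 went from 14.31 and 14.38 to 14.14 and 13.93 (change -0.31, limma adjusted p = 0.0335), and rps1601 from 13.998 and 14.044 to 13.95 and 13.86 (change -0.12, limma adjusted p = 0.247). In each gene both H2O2 arrays lay below both control arrays on both platforms. The difference in change, rps1601 minus rps1602, was 0.14 on Sp_EMA (95% interval 0.0712 to 0.216, limma adjusted p = 0.002) and 0.19 on Sp_TMA (95% interval 0.04 to 0.348, limma adjusted p = 0.0908). On Sp_EMA the pair no longer passed with gene-wise errors (adjusted p = 0.843) or without the control array of culture 2 (0.0605), and over all settings the adjusted p ran from 0.002 to 0.843. The call of rps1602 itself was lost without any of the 4 arrays on Sp_EMA (limma adjusted p from 0.0528 to 0.136) and without 3 of them on Sp_TMA, the H2O2 array of culture 2 included (change -0.20, limma adjusted p = 0.121).

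No other pair passed the test on either platform, but the intervals do not show that the 2 genes responded alike. Without adjustment, the intervals of S0 (-0.346 to -0.0538) and S12 (-0.414 to -0.0682) on Sp_TMA leave out 0. So do those of S22 (0.0226 to 0.167) and S30 (0.023 to 0.168) on Sp_EMA. The 23 pairs that did not pass on Sp_TMA had 95% intervals of the difference in change between -0.414 and 0.457, and the 22 on Sp_EMA between -0.135 and 0.168. The Sp_EMA intervals rest on 1 variance shared by all pairs, so each has the same standard error of 0.0365. In the fit over all genes no single small-subunit gene had a standard error below 0.0476 there. The Sp_EMA intervals may therefore be too narrow to bound the differences. On Sp_EMA 50 of the 54 genes had control signals of 14 or more, where the highest signal of any gene was 14.93, and the part of this narrow range in the intervals was not tested. Outside S14 the largest difference in either direction was 0.241 on Sp_TMA, for the S12 pair rps1201 and rps1202, and 0.144 on Sp_EMA, for S16. The pairs rps001 and rps002 (S0) and rps1201 and rps1202 had the next largest differences on Sp_TMA, -0.20 and -0.24, each with a limma adjusted p of 0.0763. On Sp_EMA the same pairs differed by 0.02 and -0.03. The 2 cultures gave the difference the same sign in 15 of 24 pairs on Sp_TMA and 22 of 24 on Sp_EMA.

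**Figure D3:**
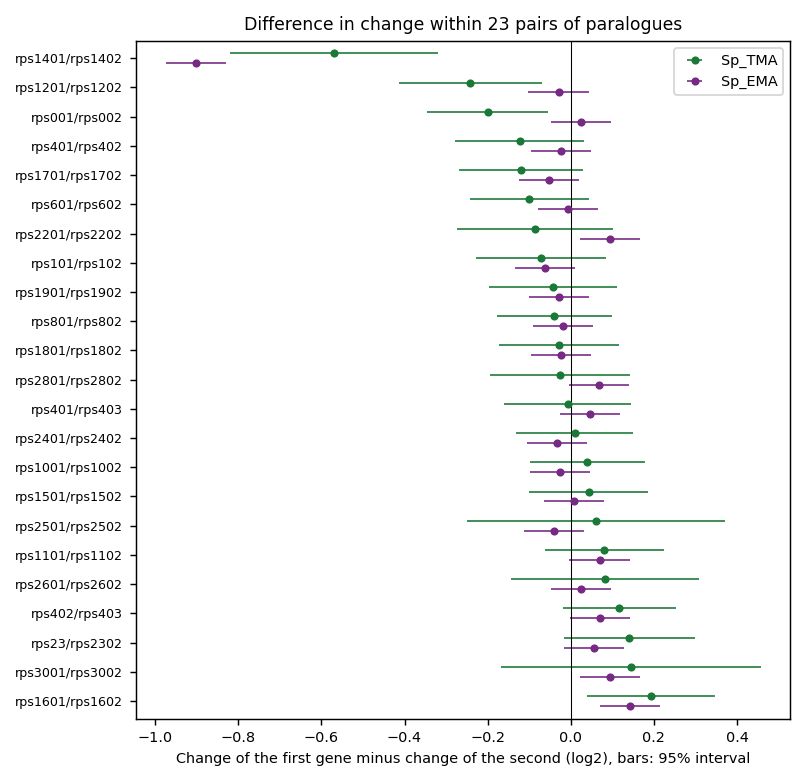
Difference in change between the paralogues of each of 23 pairs (first gene minus second, log2, horizontal axis) with its 95% interval, on Sp_TMA and Sp_EMA. The pair rps1401 and rps1402 lies at -0.57 and -0.90, and no other pair exceeds 0.241 on Sp_TMA or 0.144 on Sp_EMA in either direction. On Sp_EMA all pairs share 1 variance, so its intervals are equally wide and may be too narrow.

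After rps1401 the most negative changes on Sp_TMA were those of rps001, rps1201, rps20 and rps1701, which were all smaller on Sp_EMA. S0 (uS2), encoded by rps001 (SPBC685.06, chromosome II, 2778905 to 2779942), lies on the body near the exit of the mRNA. Its gene read 13.95 and 13.91 in control cells and 13.69 and 13.48 in H2O2 on Sp_TMA, and 14.59 and 14.61 against 14.59 and 14.58 on Sp_EMA. The change was -0.35 on Sp_TMA (standard error 0.0932, limma adjusted p = 0.0202) and -0.01 on Sp_EMA (limma adjusted p = 0.826). The groups did not overlap on Sp_TMA and overlapped on Sp_EMA. The call was lost without the H2O2 array of culture 2 (change -0.25, limma adjusted p = 0.0717) and without either control array (limma adjusted p = 0.0963 and 0.0686).

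S12 (eS12), encoded by rps1201 (SPCC962.04, chromosome III, 553174 to 553840), lies in the head. The gene read 13.79 and 13.98 in control cells on Sp_TMA and 13.65 and 13.43 in H2O2, which is a change of -0.35 (standard error 0.109, limma adjusted p = 0.0357). On Sp_EMA it read 14.63 and 14.61 against 14.56 and 14.61, a change of -0.03 (limma adjusted p = 0.602). Its H2O2 values were below its control values on both platforms, by a wider margin on Sp_TMA than on Sp_EMA. The call was lost without the H2O2 array of culture 2 (change -0.24, limma adjusted p = 0.156) and without the control array of that culture (limma adjusted p = 0.18). S17 (eS17), also a head protein, is encoded by rps1701 (SPBC839.05c, chromosome II, 603508 to 604405). It read 14.23 and 14.27 in control cells on Sp_TMA and 14.08 and 13.78 in H2O2, which is a change of -0.32 (standard error 0.113, limma adjusted p = 0.0487). On Sp_EMA it read 14.61 and 14.58 against 14.52 and 14.50, a change of -0.08 (limma adjusted p = 0.203). Without the H2O2 array of culture 2 the change of rps1701 on Sp_TMA was -0.17 (limma adjusted p = 0.157), and the call was also lost without either control array (limma adjusted p = 0.129 and 0.16).

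S20 (uS10) has a single gene, rps20 (SPCC576.09, chromosome III, 2096527 to 2097017), and lies in the head near the entry of the mRNA; in budding yeast and human cells it is ubiquitinated on colliding ribosomes. It read 13.69 and 13.78 in control cells on Sp_TMA and 13.57 and 13.22 in H2O2, a change of -0.34 that did not pass (standard error 0.125, limma adjusted p = 0.0561). On Sp_EMA it read 14.71 and 14.71 against 14.72 and 14.69, a change of -0.01 (limma adjusted p = 0.9). Its groups overlapped only on Sp_EMA. With the replicate block the change on Sp_TMA passed (adjusted p = 0.0116), and over all settings the adjusted p ran from 0.0116 to 0.195. Among the other genes that passed on Sp_TMA were rps2302 (S23, uS12, at the decoding centre, change -0.32), rps2802 (S28, eS28, at the exit of the mRNA, -0.30) and rps403 (S4, eS4, -0.28). On Sp_EMA their changes lay at -0.08, -0.14 and -0.10, and none passed.

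Genes of the head, the platform and the body were all among those that fell on Sp_TMA. Of the 23 head genes 5 were lower on Sp_TMA (21.7%), with a median change of -0.215, and 1 on Sp_EMA, with a median of -0.049. Of the 11 platform genes 1, rps1401, was lower on each platform, and the medians were -0.116 and -0.036. Of the 20 body genes 3 were lower on Sp_TMA (15%), with a median of -0.156, and 0 on Sp_EMA, with a median of -0.05. Each share lies below the share of all genes that were lower on that platform, and differences between the places were not tested. The only change above 0 on Sp_TMA was that of rps3001 (S30, eS30), 0.07, with 0.53 in culture 1 and -0.38 in culture 2, so its cultures moved in opposite directions. On Sp_EMA rps1902 (S19, 0.01) and rps13 (S13, 0.004) lay above 0, and neither passed. All 9 proteins with a single gene in the tables missed the test on both platforms, with median changes of -0.123 and -0.01. Among their genes, rps901 is numbered like a paralogue. The 45 genes with a paralogue in the tables had medians of -0.181 and -0.049.

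**Figure D4:**
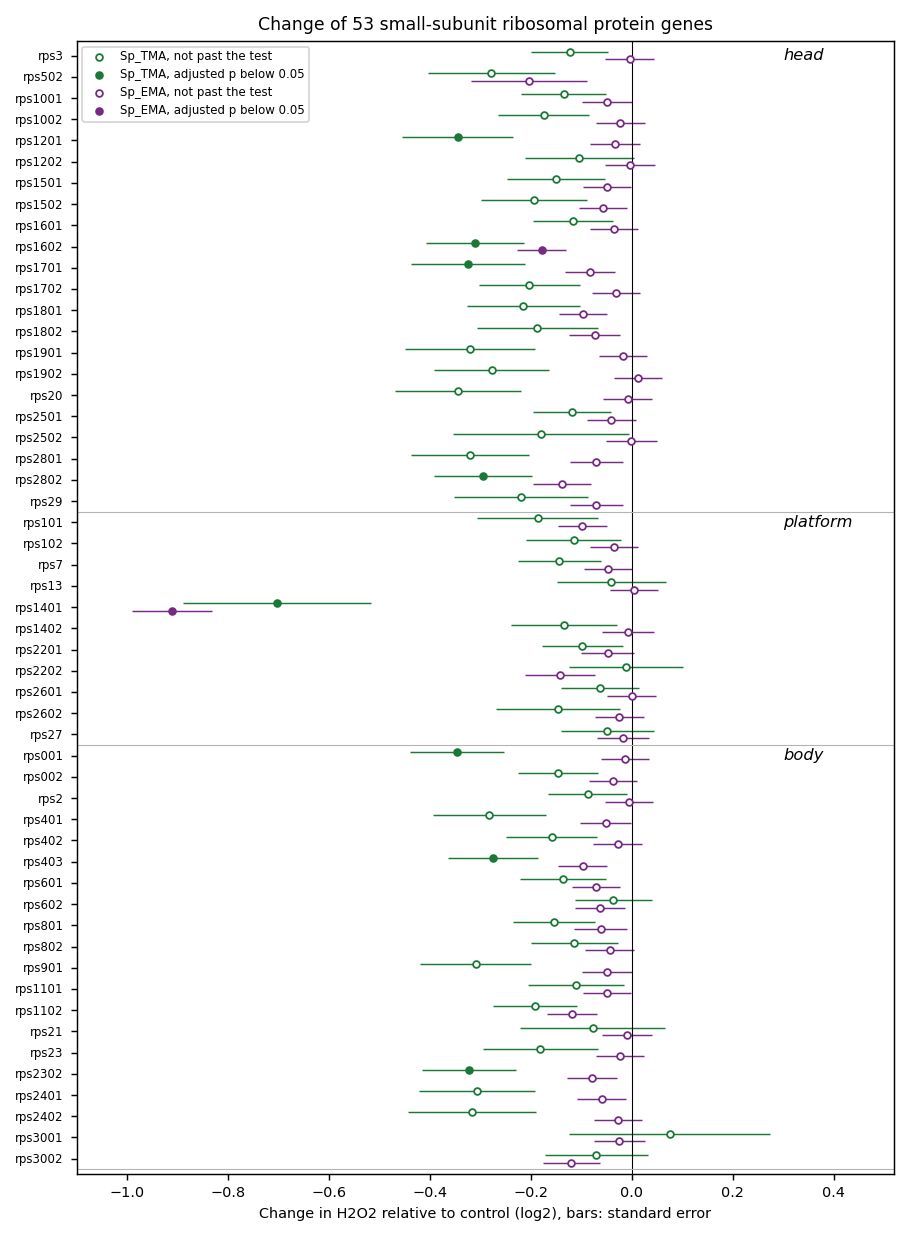
Change in H2O2 relative to control (log2, horizontal axis) of 53 of the genes with its standard error, on Sp_TMA and Sp_EMA, ordered by place in the subunit. Filled points passed the test; rps1401 lies at -0.70 and -0.91 and the other genes between -0.346 and 0.075 on Sp_TMA.

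The change was more negative on Sp_TMA than on Sp_EMA in 49 of 54 genes. The difference in change, Sp_TMA minus Sp_EMA, had a median of -0.116 over the small-subunit genes and 0.05 over all genes. In culture 1 the median changes were close on the platforms, -0.045 on Sp_TMA and -0.041 on Sp_EMA, and they lay apart in culture 2, -0.34 against -0.04, where the H2O2 array of Sp_TMA stood apart. By limma on that difference, 0 of the 54 genes passed, against 9.81% of all genes, and 8 had an unadjusted p below 0.05, against 29.7% of all genes, all 8 more negative on Sp_TMA. The smallest adjusted p was 0.0666, for rps001 (-0.33), and with the replicate block rps001 alone passed (adjusted p = 0.0412). The differences of rps20 and rps1201 were -0.34 and -0.31. The gene rps1401 went the other way, with a difference of 0.21 (limma adjusted p = 0.333). Signals on Sp_EMA lay close to the top of its range: the 54 genes had a median control signal of 14.454 (log2), and the highest signal of any gene on a control array was 14.93. On Sp_TMA the median was 13.989 and the highest signal 15.28. The 4 genes with a control signal under 14 on Sp_EMA, rps1401 among them, had a median change of -0.177 there, and the other 50 had -0.042. On Sp_TMA the same 4 genes had a median change of -0.288 and the other 50 had -0.167, so they were the lower group on both platforms. The part of the signal range in the difference between the platforms was not tested.

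In control cells most small-subunit genes were among the brightest of all genes. In the top 5% of control signal were 35 of them on Sp_TMA and 50 on Sp_EMA, and in the top 10% 46 and 53. On Sp_TMA the signals ran from 10.92 for rps3002 to 15.26 for rps2 (S2, uS5, at the entry of the mRNA), with rps3 (S3, uS3) at 15.24 and rps602 (S6) at 15.09. On Sp_EMA they ran from 12.34 for rps502 to 14.78 for rps7. Probes of different genes differ in how well they bind, so the levels of paralogues are given side by side with no test. Paralogues are also alike in sequence, with a coding identity of 74.27% for S12 and 93.46% for S18. Binding of probes to the other paralogue was not tested, for levels or for changes. The same paralogue was brighter on both platforms in 14 of 24 pairs, and the other one in 10. This counts signs only, and gaps on Sp_EMA went down to 0.008, so the 10 are not all clear reversals. Within a platform the order was the same on both control arrays in 24 pairs on Sp_TMA and 23 on Sp_EMA. The median gap between paralogues was 0.471 on Sp_TMA and 0.136 on Sp_EMA, and the gap passed 1 in 5 and in 2 pairs.

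The gaps between paralogues on Sp_TMA were not all found on Sp_EMA. For S22 (uS8), rps2201 exceeded rps2202 by 1.25 on Sp_TMA and 0.758 on Sp_EMA, and for S14, rps1402 exceeded rps1401 by 0.517 and 1.01. These proteins had the same brighter gene on both platforms. For S26 (eS26), at the exit of the mRNA, rps2601 exceeded rps2602 by 1.86 on Sp_TMA but was below it by 0.185 on Sp_EMA. For S24, rps2402 exceeded rps2401 by 1.31 and 0.0533, and for S23, rps2302 exceeded rps23 by 1.11 and 0.0473. In these 3 proteins the gap of over 1 on Sp_TMA shrank or turned on Sp_EMA.

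**Figure D5:**
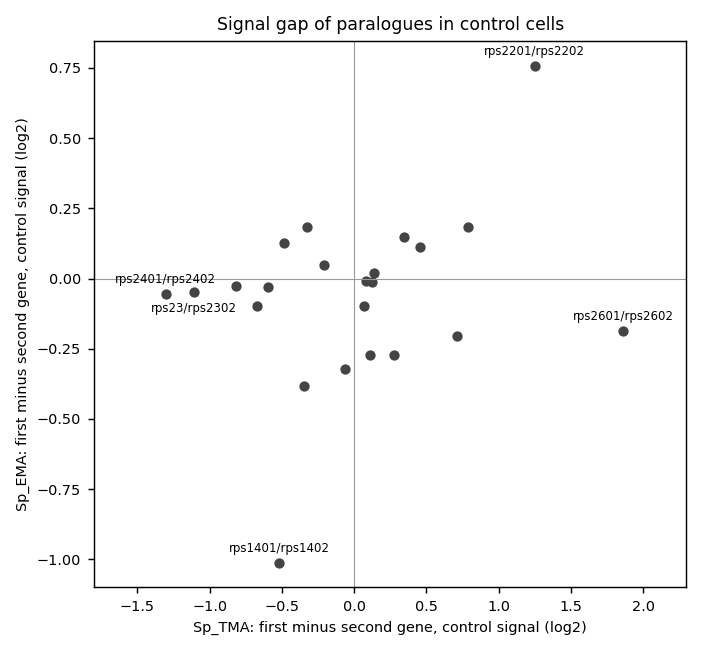
Control signal of the first gene minus that of the second (log2) in each of 23 pairs of paralogues, on Sp_TMA (horizontal axis) and Sp_EMA (vertical axis). The pair rps2201 and rps2202 lies at 1.25 and 0.758, and rps2601 and rps2602 at 1.86 and -0.185.

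Most of the 54 genes held HomolD or HomolE letters in their promoters, which their choice by name did not use. In the 300 bases before the gene start in RefSeq (ASM294v3), the HomolD letters CAGTCACA were found on either strand in 34 of 54 promoters (62.96%), against 2.6% of all 4842 promoters examined. The match nearest to the start lay 36 to 68 bases before it, with a median of 45, and rps1402 held another match farther upstream. The HomolE letters, a pair of ACCCT units in a row, were found in 21 promoters (38.89%), against 1.24% of all, 51 to 82 bases before the start. Promoters of the 71 large-subunit genes held HomolD in 63.38% and HomolE in 23.94%. Of the 54 genes, 10 held both motifs, 24 HomolD alone, 11 HomolE alone and 9 neither. In 6 pairs both paralogues held HomolD and in 18 pairs one of them did. With at most 1 mismatch, in the last 100 bases, 53 of 54 promoters (98.15%) had HomolD, against 8.32% of all, and 25 (46.3%) had HomolE, against 2% of all. This search was chosen after the exact matches were seen.

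The promoter with no HomolD match in that search was that of rps1401, which held HomolE. After HomolE it holds the letters attgactg, which resemble TGTGACTG, the HomolD letters of the other strand. They differ from these at more than 1 base, so that search did not count them. No search with more mismatches was run, so a more degenerate HomolD box there was not examined. The promoter of rps1402 held HomolD on both strands, and that of rps1602 held it with a mismatch. The last 100 bases before these genes are shown, with rps2, whose promoter held both motifs, as a comparison. Capitals mark matches to HomolD or HomolE with at most 1 mismatch.
rps1401, chrI:3436144-3436243, forward strand: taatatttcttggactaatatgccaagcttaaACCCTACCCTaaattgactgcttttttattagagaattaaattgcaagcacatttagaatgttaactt
rps1402, chrII:1792263-1792362, forward strand: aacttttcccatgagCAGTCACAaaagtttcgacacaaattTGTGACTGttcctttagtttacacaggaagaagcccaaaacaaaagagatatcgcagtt
rps1602, chrI:1711083-1711182, reverse strand: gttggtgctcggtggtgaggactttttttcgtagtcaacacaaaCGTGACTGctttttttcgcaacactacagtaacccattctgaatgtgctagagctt
rps2, chrIII:2096037-2096136, reverse strand: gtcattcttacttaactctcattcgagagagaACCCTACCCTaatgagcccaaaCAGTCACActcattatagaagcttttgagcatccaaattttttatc

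These matches are descriptions of letters and not of binding. Genes with and without an exact HomolD match had median changes of -0.15 and -0.183 on Sp_TMA and -0.046 and -0.049 on Sp_EMA. For HomolE the medians were -0.175 with a match and -0.187 with none on Sp_TMA, against -0.036 and -0.047 on Sp_EMA. These medians were not tested against each other.

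Most genes for factors that assemble the small subunit fell. Over all genes 31.3% were lower and 25.2% higher on Sp_TMA, and 36.2% and 22.7% on Sp_EMA. Of 23 factors that assemble the subunit, 18 were lower on each platform (78.3%) and 0 higher, with median changes of -0.505 on Sp_TMA and -0.56 on Sp_EMA. Among them, rbp28, which encodes Pno1, an RNA-binding factor of pre-rRNA processing, changed by -1.24 (limma adjusted p = 8.95e-05) and -1.29 (limma adjusted p = 0.000132). SPAC1486.09 encodes Nob1, the nuclease that makes the end of the 18S rRNA, and changed by -0.90 and -0.84. Of the 18 genes listed as initiation factors that bind the subunit, cpc2 (RACK1) included, 0 were lower on Sp_TMA and 1 (5.56%) on Sp_EMA. The latter was SPAC821.05 (eIF3h, -0.21). The medians of the 18 were -0.119 and -0.063. The 71 genes named as large-subunit proteins had 9 lower on Sp_TMA (12.7%) and 3 on Sp_EMA (4.23%), with medians of -0.194 and -0.05. Among them rpl701, rpl703 and rpl2403 are annotated as a subunit of RNase MRP or as ribosome assembly factors, and the other 68 had 7 lower on Sp_TMA and 1 on Sp_EMA, with medians of -0.181 and -0.048. No difference between these lists was tested.

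The 13 listed regulators of ribosomal protein genes and of S6 phosphorylation moved in both directions, with 3 higher and 8 lower on Sp_TMA and 3 higher and 6 lower on Sp_EMA. The lower ones were 61.5% of the list on Sp_TMA and 46.2% on Sp_EMA, against 31.3% and 36.2% of all genes. Higher were 25.2% and 22.7% of all genes, and the counts of higher regulators lie close to these shares. The kinase gene psk1, whose product is an S6 kinase family member, changed by -0.87 and -0.98, and sfp1, which encodes a transcription factor, by -0.77 and -1.05. The gene rrn7, whose product is a transcription factor of RNA polymerase I, changed by -0.27 and -0.35. Higher were gad8 (0.55 and 0.58), sck1 (0.52 and 0.27) and SPAC22H10.11c (0.36 and 0.21), annotated as the corepressor Ifh1. The forkhead gene fhl1 changed by 0.23 and 0.20 and did not pass. The genes of S6 itself, rps601 and rps602, had changes of -0.14 and -0.04 on Sp_TMA, against -0.07 and -0.06 on Sp_EMA, and none passed. These lists were written from general knowledge.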

How the data were processed

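Values are log2 signals per gene and array, which the authors made with RMA (background correction, quantile scaling and median polish) for each platform separately and deposited; the software version is not given in the sources used here. They were used as deposited, for the 4854 genes found in both tables. Control and H2O2 were compared per platform with limma 3.58.1 in R 4.3.3 (residual df 2), with no culture term. Differences between paralogues were tested over pairs of cytosolic ribosomal protein genes with at least 50% protein identity, and 7 large-subunit pairs fell short of that. The labels number the replicates, and in the paper H2O2 went into what remained of each culture after the control sample. Same-numbered samples were therefore taken to be of the same culture, which was a replicate block in an alternative. Deviations of same-numbered control and H2O2 arrays correlated across genes at r = -0.0585 on Sp_TMA and 0.2528 on Sp_EMA. An exact permutation test of 2 against 2 arrays cannot go below p = 0.333 and is not given.

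Array values carry no depth, and the number of arrays limits the precision: the median standard error of a member's change was 0.101 on Sp_TMA and 0.0489 on Sp_EMA. In simulated data of 4854 genes, few of them changed, limma recovered 27 of 67 changes of log2 0.5 and 62 of 67 of log2 1 on Sp_TMA. On Sp_EMA it recovered 51 of 67 and 62 of 67. In the real data 31.3% of genes were lower and 25.2% higher on Sp_TMA. The adjusted p depends on that share, so these recoveries do not give the power of the test as run. Members and lists were chosen with earlier results of these data known. The gene dim1 was left out of the assembly factors after the values were seen, because its annotated product is not of that list. Named genes are the 5 largest falls on Sp_TMA, genes of pairs that passed on both platforms and the 3 largest differences between platforms; other names were chosen after their values were seen. Positions and sequences are RefSeq's (ASM294v3), with 4842 genes matched, all 54 members among them. The authors mapped probes to a Sanger Centre annotation release, whose assembly name is not given in the sources used here. Python 3.11.15 with pandas 2.3.3 made the tables. A gene and its pair are not reported here by name and are left out of the figures, but stay in the counts.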

Additional observations from a re-analysis of the deposited data

How the results depend on the processing

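The absence of genes that passed as higher was kept under every alternative run on both platforms, and the fall of rps1401 kept its direction throughout. The count of lower small-subunit genes on Sp_TMA (9) was 18 with the replicate block, 23 with quantile normalization of the gene values, 16 without the dimmest 25% of genes and 0 at an adjusted p below 0.01, and it ran from 0 to 26 when single arrays were left out. On Sp_EMA the count (2) was 15 with an intensity trend in the variance, 1 at an adjusted p below 0.01 and 1 to 1 without single arrays. Pairs of paralogues that differed on Sp_TMA (1) numbered 4 with quantile normalization, 0 with gene-wise standard errors, 0 at an adjusted p below 0.01 and 0 to 6 without single arrays, and on Sp_EMA (2) 1 with gene-wise errors and 1 to 4 without single arrays. Genes whose change differed between the platforms (0) numbered 1 with the replicate block and 6 with quantile normalization. The block changed no other count by over 1.5 times: it gave 1 pair on Sp_TMA and 3 on Sp_EMA. The causes were not tested.

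Changes near 0 on Sp_EMA turned sign: rps001 to 0.013 with quantile normalization, rps1402 to 0.003 with centred arrays, 0.024 with quantile normalization and between -0.032 and 0.016 without single arrays, and rps20 to 0.003 with centred arrays and between -0.022 and 0.006 without single arrays. Without single arrays the difference between platforms of rps1401 ran from -0.0 to 0.414, and that of rps502 from -0.149 to 0.001. The median change of the 54 genes on Sp_TMA, an alternative added after the data were seen, ran from -0.301 to -0.078 without single arrays. Leaving out large-subunit pairs with a gene annotated with another product, also added then, kept the counts of pairs at 1 and 2.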
